A study of Homo sapiens with 2 samples.

Results

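The clustered protocadherin genes were examined for open chromatin at their promoters in B2B cells. The 53 members are the protein-coding genes of human chromosome 5 whose symbols carry the alpha, beta or gamma protocadherin names. They stand among 20033 protein-coding genes in all. The members were chosen by name and not by signal, although earlier results of these data were known. The alpha cluster held 15 of them, the beta cluster 16 and the gamma cluster 22, over 726.842 kb of hg38 (chr5:140786136-141512977, all members on the plus strand). B2B, or BEAS-2B, is an immortalized but non-cancerous human bronchial epithelial line, here with a WT genotype and no drug treatment. ATAC-seq, in which the Tn5 transposase cuts accessible DNA, was carried out on 2 replicates, which the series describes as biological, and no other condition was analysed, so there was nothing to test between groups. The authors' peak lists held 28735 peaks in replicate 1 and 36162 in replicate 2 on chromosomes 1 to 22, X and Y, with a median of 35 and 30 fragments at the summit and no listed summit under 16 and 13 fragments.

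Clustered protocadherins are cell surface adhesion proteins, best known from neurons, where each cell shows its own combination and neurites of the same cell recognize each other by it. Each variable exon has its own promoter. In the alpha and gamma clusters the chosen variable exon is spliced to constant exons that all members of that cluster share, whereas beta genes have no constant exons. Most of these promoters carry a conserved element with CGCT at its core, to which the insulator protein CTCF binds, and neurons choose among them largely at random. The C-type genes PCDHAC1, PCDHAC2, PCDHGC3, PCDHGC4 and PCDHGC5 are known to be used in a less random way than the others.

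The promoters that the results turn on are printed here as the 200 bases upstream of the canonical transcription start site (TSS), 5′ to 3′ on the plus strand of hg38. The first 4 had a peak in both replicates, PCDHGB6 is the near-identical copy of PCDHGB7 without a peak, PCDHGC4 is a C-type promoter without a peak, and the last 2 had a peak in replicate 2 only. Capitals mark the stretch closest to the 8-letter word that the largest number of members of the same cluster share (ATGTCGCT for alpha, GTGGCGCT for beta, GCCGCTGT for gamma). All alpha promoters with ATGTCGCT also held GATGTCGC, and for beta GGTGGCGC was shared by as many members as GTGGCGCT. The words holding CGCT were taken.
PCDHAC1, chr5:140926099-140926298: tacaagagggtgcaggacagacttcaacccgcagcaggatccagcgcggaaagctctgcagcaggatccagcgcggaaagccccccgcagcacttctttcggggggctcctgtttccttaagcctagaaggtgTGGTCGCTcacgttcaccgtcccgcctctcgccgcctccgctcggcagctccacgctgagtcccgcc
PCDHAC2, chr5:140966276-140966475: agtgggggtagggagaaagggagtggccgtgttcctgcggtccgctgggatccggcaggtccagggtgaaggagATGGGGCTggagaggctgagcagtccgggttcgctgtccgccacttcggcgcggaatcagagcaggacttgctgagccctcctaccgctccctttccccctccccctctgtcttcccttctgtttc
PCDHGC3, chr5:141475766-141475965: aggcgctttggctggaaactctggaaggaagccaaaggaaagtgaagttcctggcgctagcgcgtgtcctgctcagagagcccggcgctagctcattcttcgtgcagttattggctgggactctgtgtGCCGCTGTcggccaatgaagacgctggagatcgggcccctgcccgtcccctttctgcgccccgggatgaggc
PCDHGB7, chr5:141417477-141417676: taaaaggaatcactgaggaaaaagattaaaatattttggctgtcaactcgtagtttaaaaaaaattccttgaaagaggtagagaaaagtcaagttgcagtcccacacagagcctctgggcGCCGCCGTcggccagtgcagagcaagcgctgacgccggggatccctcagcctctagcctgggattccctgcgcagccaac
PCDHGB6, chr5:141407821-141408020: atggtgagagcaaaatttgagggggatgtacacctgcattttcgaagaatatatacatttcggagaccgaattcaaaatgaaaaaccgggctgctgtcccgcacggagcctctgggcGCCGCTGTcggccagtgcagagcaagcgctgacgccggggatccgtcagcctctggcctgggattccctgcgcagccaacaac
PCDHGC4, chr5:141484830-141485029: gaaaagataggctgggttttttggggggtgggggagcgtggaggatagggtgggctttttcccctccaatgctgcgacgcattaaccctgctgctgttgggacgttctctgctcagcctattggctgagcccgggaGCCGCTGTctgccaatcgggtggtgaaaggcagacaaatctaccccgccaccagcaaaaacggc
PCDHB2, chr5:141094415-141094614: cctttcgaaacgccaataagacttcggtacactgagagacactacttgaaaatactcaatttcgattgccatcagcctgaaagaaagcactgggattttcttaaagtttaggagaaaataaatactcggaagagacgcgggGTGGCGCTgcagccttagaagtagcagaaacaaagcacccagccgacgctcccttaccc
PCDHGA11, chr5:141420851-141421050: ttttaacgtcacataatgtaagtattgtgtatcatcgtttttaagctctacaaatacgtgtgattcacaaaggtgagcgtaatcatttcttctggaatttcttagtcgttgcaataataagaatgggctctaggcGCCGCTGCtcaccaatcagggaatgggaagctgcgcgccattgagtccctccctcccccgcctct

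A promoter was counted as open when a peak overlapped the window of 500 bp on each side of its TSS. Of the 53 members, 4 were open in both replicates (7.55%, against 50.9% of all protein-coding promoters): PCDHAC1, PCDHAC2, PCDHGB7 and PCDHGC3. The 95% Wilson interval of that share, which covers counting error only, ran from 2.97% to 17.9%. In replicate 1, 4 members had a peak, while 51.9% of all protein-coding promoters did. In replicate 2, 6 members had one, against 56.6% of all promoters, the additional ones being PCDHB2 and PCDHGA11. Counting a peak in either list, 6 members were open and 57.6% of all promoters were. The other 47 members had no peak in either list. A promoter without a listed peak is one where the signal did not pass the authors' peak calling at this depth, and such a promoter cannot be called closed.

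The open members were unevenly spread over the clusters. Among the C-type genes 3 of 5 were open in both replicates (60%, against 50.9% of all protein-coding promoters). Among the other 48 members 1 was (2.08%). The groups also differed in CpG dinucleotides within 500 bp of the TSS, with a median of 51 in the C-type and 32.5 in the other members. The part of this difference was not tested. None of the 13 alpha genes PCDHA1 to PCDHA13, none of the 16 beta genes and none of the 12 gamma A genes was open in both replicates, although PCDHB2 of the beta and PCDHGA11 of the gamma A genes each had a peak in replicate 2. Among the 7 gamma B genes, PCDHGB7 was the open one. In the plot of fold enrichment by member, both alpha C-type genes stand at the downstream end of their cluster, behind 13 promoters without a peak.

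**Figure D1:**
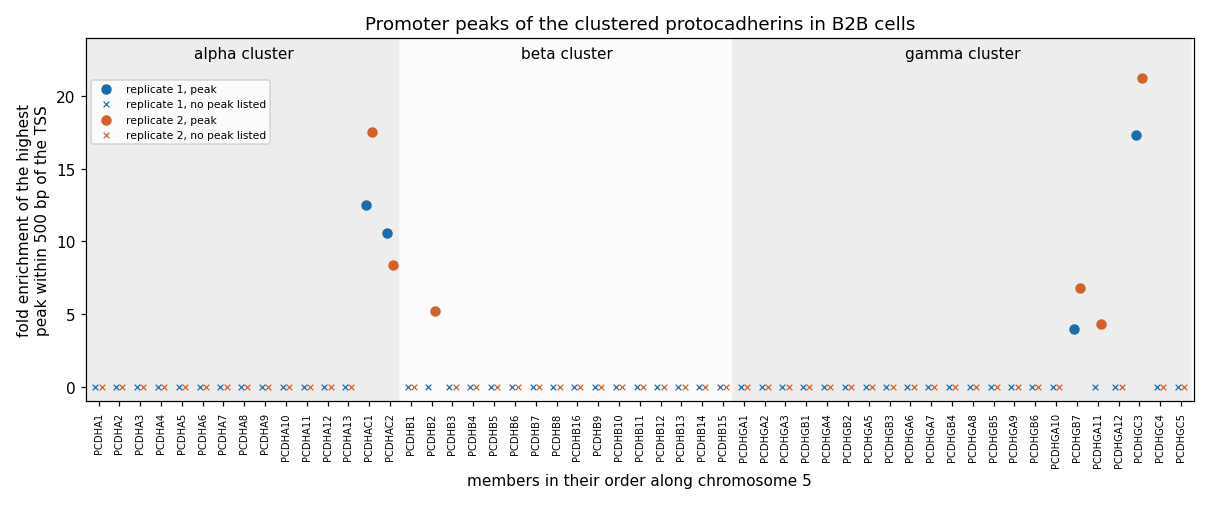
Fold enrichment (y axis, linear) of the highest peak within 500 bp of the TSS of each of the 53 members in their order along chromosome 5 (x axis), with 1 point per replicate and a cross at 0 where no peak was listed. PCDHGC3 stood highest in both replicates at 17.3 and 21.2, and 47 members carry crosses in both.

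PCDHGC3, a C-type gene of the gamma cluster, had the highest promoter peak. The fold enrichment divides the summit's fragments by the local background, after 1 is added to each, and at PCDHGC3 it was 17.3 and 21.2 in replicates 1 and 2 (19.3 ± 2.75, SD, n = 2). The summits rested on 103 and 141 fragments over a local background of 5.01 and 5.69. Among all promoter peaks of the same list, these values stood at percentile 94.8 and 98.9. The summits fell at −76 and −70 bp from the TSS, that is at −8 and −2 bp from the centre of the capitals in the sequence above. The peak of replicate 1 was 1042 bp wide and reached past the start of the coding sequence, 151 bp after the TSS, while replicate 2 listed 2 peaks over the same stretch, the higher of which was 430 bp wide. At every other member with a peak, the summits lay further from the centre of the capitals. In replicates 1 and 2 they stood 446 and 438 bp after it at PCDHAC1 and 303 and 152 bp at PCDHAC2. The capitals of PCDHAC1 and PCDHAC2 differ from the word at 2 letters and may match it by accident. At PCDHGB7 the distances were 52 and 98 bp. In replicate 2 they were 100 bp at PCDHB2 and 54 bp at PCDHGA11.

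PCDHAC1, the first C-type gene of the alpha cluster, followed with a fold enrichment of 12.5 and 17.5 (14.99 ± 3.55, SD, n = 2), from 71 and 86 fragments. In both replicates the summit lay inside the first exon, 383 and 375 bp after the TSS, before the coding sequence that begins 594 bp after it. The 2 summits were 8 bp apart. The −log10 q of the peaks was 53.1 and 77.7.

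PCDHAC2, the second C-type gene of the alpha cluster, reached 10.6 and 8.38 (9.48 ± 1.55, SD, n = 2), from 60 and 36 fragments. Its peaks were broad, 668 and 846 bp, and their summits, 181 and 30 bp after the TSS, lay 151 bp apart. In contrast to PCDHGC3 and PCDHAC1, it was lower in replicate 2 than in replicate 1, and the value in replicate 2 stood at percentile 43.4 of promoter peaks. Both values of PCDHAC2 lay below those of the other open C-type promoters. The values of PCDHGC3 and PCDHAC1 overlapped, since 17.3 in replicate 1 of PCDHGC3 lies below 17.5 in replicate 2 of PCDHAC1, although PCDHGC3 was the higher of the pair within each replicate.

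PCDHGB7, the remaining member open in both replicates, had much weaker peaks. The fold enrichment at PCDHGB7 came to 3.98 and 6.80 in replicates 1 and 2 (5.39 ± 1.99, SD, n = 2), from 22 and 29 fragments, and these values stood at percentile 3.55 and 28.1 of promoter peaks. Both values lay below the lower value of every open C-type promoter. The peaks were 143 and 240 bp wide, with summits at −24 and 22 bp from the TSS.

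The promoter of PCDHGB7 has a near-identical copy. Over 609 aligned bases it is 96.9% identical to the promoter of PCDHGB6, and the peaks of both replicates lie inside the copied stretch, whereas PCDHGB6 had no peak in either list. At the place of the gamma word, which PCDHGB6 carries in full, PCDHGB7 differs by T6C (the base of the word first, then that of the promoter, positions counted from 1 at the 5′ end of the word). How the authors' mapping placed reads that fit both copies is not given in the sources used here, and its part in the peak at PCDHGB7 was not tested. In all, 15 members had such a copy of at least 100 bp at 95% identity or more within their promoter window. Of the 38 members without a copy, 3 were open in both replicates and 2 in replicate 2 only, and 33 had no peak.

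Peaks were listed in replicate 2 alone at 2 members. PCDHB2, a beta gene, had a fold enrichment of 5.21 from 22 fragments, with the summit 45 bp after the TSS and a −log10 q of 8.85. PCDHGA11, a gamma A gene, had a fold enrichment of 4.30 from 18 fragments, with the summit at −7 bp from the TSS and a −log10 q of 5.79. Replicate 2 listed more peaks than replicate 1 over the genome. When equal numbers of the strongest peaks were taken from each list, the peak of PCDHGA11 was lost and that of PCDHB2 was kept.

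**Figure D2:**
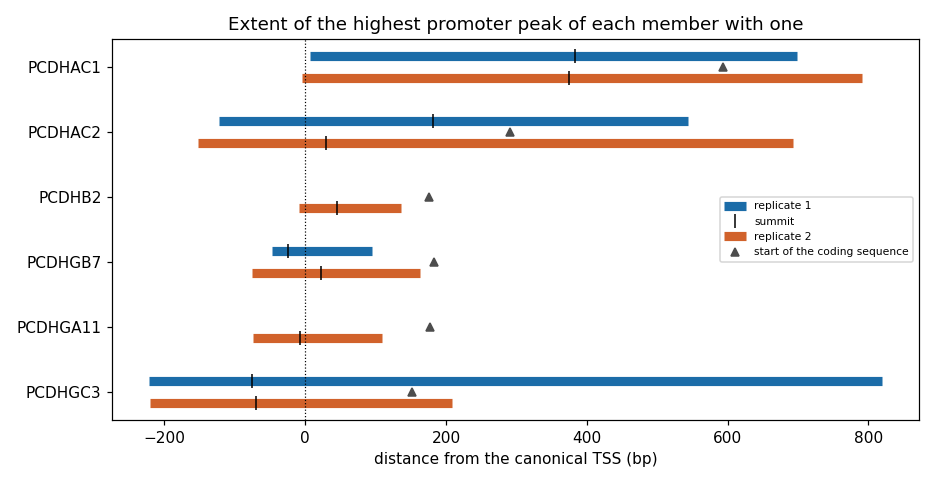
Extent of the highest promoter peak (bars, 1 colour per replicate) and its summit (black tick) around the TSS at 0 (x axis, bp) for the 6 members with a peak, with a triangle at the start of the coding sequence. The peaks of PCDHAC1 lie almost wholly after the TSS, with summits at 383 and 375 bp, while those of PCDHGC3 have summits at −76 and −70 bp.

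The median fold enrichment over the 4 members open in both replicates was 11.5 in replicate 1 and 12.9 in replicate 2 (12.2 ± 1.00, SD, n = 2). Over all protein-coding promoters with a peak in both it was 8.14 and 9.73 (8.94 ± 1.12). With replicate 2 alone, where 6 members had a peak, the members' median was 7.59. The 9.73 above covers only promoters with a peak in both replicates, so it is not the like value for those 6. The 4 members open in both replicates differ widely, from a mean of 5.39 for PCDHGB7 to 19.3 for PCDHGC3.

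The remaining C-type genes and PCDHB1, the first beta gene, had no peak. The nearest peak lay 8245 bp from the TSS of PCDHGC4 in replicate 1, and 12296 bp from that of PCDHGC5. For PCDHB1 it was 9999 bp away. Over the 47 members without a peak, the nearest peak was at a median distance of 59.1 kb in replicate 1 and 47.4 kb in replicate 2. The shortest distance was that of PCDHGA10, 4.64 and 4.61 kb, and the longest 138 kb, at PCDHB16, in replicate 1 and 112 kb, at PCDHB12, in replicate 2.

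These members lay in long stretches without any peak. Of the 53 TSSs, 43 fell into 3 stretches in which neither list held a peak. The first was 200 kb long and held the 13 genes PCDHA1 to PCDHA13. Next came a stretch of 225 kb with the 14 beta genes from PCDHB3 to PCDHB15, and then one of 96.5 kb with the 16 gamma genes from PCDHGA1 to PCDHGA10. Of 37637 such stretches over the genome, 23 held at least 16 protein-coding TSSs, and those with the most held olfactory receptor, UGT2B and keratin-associated protein genes, which are also families in tandem arrays.

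The span as a whole was not poor in peaks relative to the genome. The span held 8 peaks in replicate 1 and 15 in replicate 2, and 8 regions with a peak in both. That is 1.10 regions per 100 kb, close to 1.09 for chromosome 5 and above 0.821 for all chromosomes. The 1 Mb before the span had 3.70 regions per 100 kb and the 1 Mb after it 2.7. By cluster, the density was 0.884 in alpha, 0 in beta and 1.64 in gamma. Of the 8 regions, 1 lay between alpha and beta and 2 between beta and gamma, at the starts of other genes. The 6 protocadherin pseudogenes of the span had no peak in either list.

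Away from the members' promoters, 4 regions of the span had a peak in both replicates. One lay between the constant exons 2 and 3 of the gamma cluster (chr5:141508863-141509467), with a fold enrichment of 9.83 and 9.69 (9.76 ± 0.0967, SD, n = 2), from 68 and 66 fragments. Of the 8 regions that both lists share in the span it had the smallest SD, and it stood 20.1 kb after the TSS of PCDHGC5. A pair of regions lay at the start of TAF7, which encodes a subunit of the general transcription factor TFIID and stands between the beta and gamma clusters, with values of 4.85 and 9.97 for the one and 6.41 and 6.80 for the other. The fourth region lay between the alpha and beta clusters (chr5:141041175-141041381), by the start of the non-coding gene ENSG00000288892 and at −10.1 kb from the TSS of PCDHB1, with 4.50 and 6.34 (5.42 ± 1.30). The other protein-coding genes inside the span, SLC25A2 and ENSG00000279983, had no promoter peak.

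A further 4 regions were listed in replicate 2 only. Both of those in the alpha cluster lay between its constant exons 2 and 3, with fold enrichments of 7.48 (chr5:141001973-141002189) and 4.53 (chr5:141004190-141004335), the latter around the letters TGANTCA to which AP-1 factors bind. One lay in the antisense gene PCDHB1-AS1, at −9.998 kb from the TSS of PCDHB2 (4.98), and one beside the gamma constant exon region described above (3.68). Past the end of the gamma cluster, 4 more regions within 50 kb had a peak in both replicates, among them one in an intron of DIAPH1, an actin nucleator, with 10.05 and 13.6. The letters TGANTCA also stood at 1 place in the shared gamma region (chr5:141508863-141509467) and at 2 places in this DIAPH1 region. How many of all peak regions hold TGANTCA was not counted, so these places cannot be called particular to the span.

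**Figure D3:**
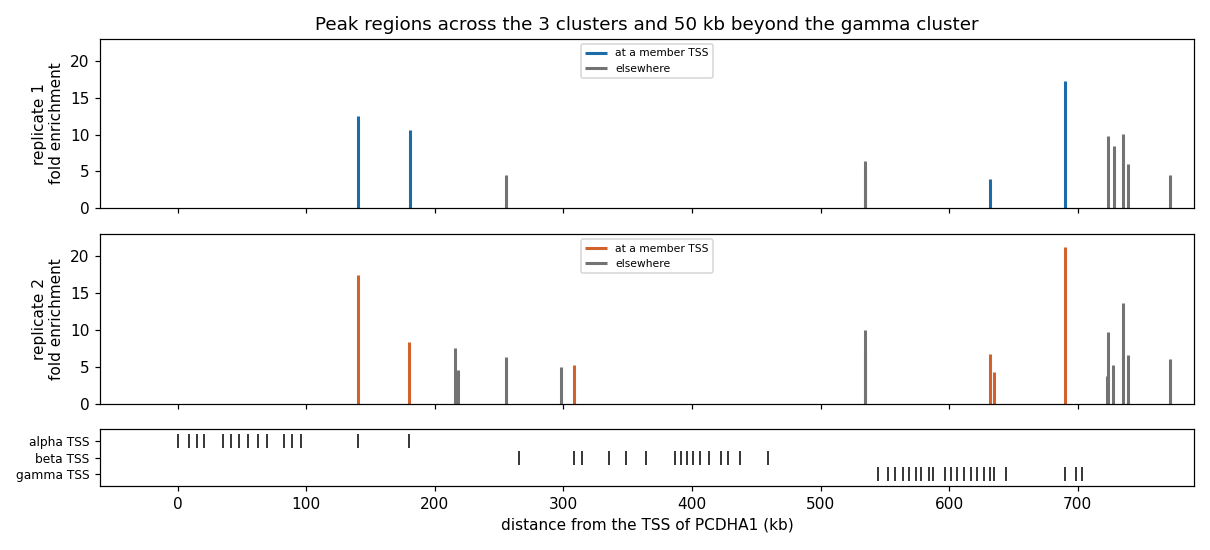
Fold enrichment of each peak region (y axis, linear, 1 panel per replicate) against its distance from the TSS of PCDHA1 (x axis, kb), coloured where it overlaps 500 bp around a member TSS and grey elsewhere, with the members' TSSs as ticks below. No coloured line stands over the 13 alpha TSSs at the left or over the 16 gamma TSSs from PCDHGA1 to PCDHGA10.

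The windows 50 bp to either side of the summit of replicate 1 or, where there was none, of replicate 2 are shown for 3 of these regions on the plus strand, to show the letters of regions that belong to no member's promoter. Capitals mark the letters closest to a cluster's word in the first pair and TGAGTCA in the last.
Between alpha and beta, chr5:141041249-141041349: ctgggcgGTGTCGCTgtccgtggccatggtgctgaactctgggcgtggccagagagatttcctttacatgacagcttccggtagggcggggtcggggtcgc
In PCDHB1-AS1, chr5:141084519-141084619: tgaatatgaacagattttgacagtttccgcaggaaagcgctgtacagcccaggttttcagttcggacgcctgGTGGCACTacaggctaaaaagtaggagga
Alpha intron, chr5:141004210-141004310: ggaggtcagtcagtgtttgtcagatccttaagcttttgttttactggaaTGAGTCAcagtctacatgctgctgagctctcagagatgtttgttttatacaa

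The window between alpha and beta carries the letters GTGTCGCT, which differ from the alpha word by A1G, and the window in PCDHB1-AS1 GTGGCACT, which differ from the beta word by G6A. A match to any of the 3 words with at most 1 difference, on either strand, was found in 62.3% of all 25366 peak regions that the lists share, so that such a match sets no region apart.

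The letters shared by the members' promoters were counted from 250 bp before to 50 bp after the TSS, on both strands. The letters CGCT stood in 51 of 53 (96.2%, against 82.4% of all protein-coding promoters), the exceptions being PCDHA9 and PCDHGC5. Longer words were shared within a cluster. The beta word GTGGCGCT was found on the genes' strand in 14 of 16 beta promoters (87.5%) and in 0.923% of all promoters, with its start at a median of −65.5 bp from the TSS. The alpha word ATGTCGCT stood in 10 of 15 alpha promoters (66.7%) and in 0.185% of all. The gamma word GCCGCTGT stood in 12 of 22 gamma promoters (54.5%) and in 1.17% of all. These words were found by counting in the same promoters, so their shares are a description of the members.

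Of the 36 members with their cluster's word in full, 1 was open in both replicates, and of the 17 without it 3 were. In the alpha cluster the 13 members with at most 1 difference had no peak, and both members with 2 differences, PCDHAC1 and PCDHAC2, were open. Both are also the C-type genes of that cluster, so that the word and the type cannot be told apart there. How often letters with 2 differences occur in other promoters was not counted, so these matches need not be traces of the element. In PCDHAC2 the marked letters lack CGCT, which stands at other places of its promoter. Of the members open in both replicates, PCDHGC3 carried its cluster's word in full, PCDHGB7 with 1 difference, and PCDHAC1 and PCDHAC2 with those 2 differences each, A1T and T2G in PCDHAC1 and T4G and C5G in PCDHAC2. At PCDHAC1 the marked letters lay before the start of both peaks. PCDHGC4, without a peak, carried the gamma word in full, starting at −64 bp from the TSS. PCDHB2, open in replicate 2, carried the beta word in full, as 13 other beta genes did that had no peak.

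The letters AGGNGGC, a core of the CTCF motif, were found in 5 members (9.43%, against 43.3% of all promoters), namely PCDHAC1, PCDHB2, PCDHB7, PCDHB9 and PCDHGC5. Where they were absent, only these letters were absent from this window. TGANTCA, whose reverse complement reads the same, stood in 3 members (5.66%, against 5.44%), PCDHA13, PCDHGA11 and PCDHGC5. When 500 bp before the TSS were searched, it stood in 13 members (24.5%, against 10.4%). TATAAA stood in 11 members (20.8%, against 9.71%), and in 27 (50.9%, against 18.3%) with the longer window. None of the 11 members with TATAAA was open in both replicates, and 2 of the 27 were, beside 4 of all 53 members (7.55%). These counts are too small to link TATAAA to open promoters.

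CpG dinucleotides within 500 bp of the TSS were fewer at the members than at other genes, with a median of 33 against 66 over all protein-coding promoters. The 4 members open in both replicates had 78 (PCDHAC1), 63 (PCDHAC2), 50 (PCDHGC3) and 48 (PCDHGB7), a median of 56.5. PCDHGA11 had 50 and PCDHB2 had 31. The 47 members without a peak had a median of 32 and ranged from 14 to 53, so that the ranges overlapped between 48 and 53. The difference of the medians between open and peak-free members was 24.5.

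The members' low share of open promoters can be set beside other promoters of the same CpG count. Between 27 and 38 CpGs, the interquartile range of the members, none of 29 members was open in both replicates, while 20% of the 1050 other promoters were. The range from 48 to 78 CpGs was set by the open members themselves, so that all 4 lie in it by construction and their share, 4 of 7 (57.1%), is no comparison with the 67.5% of 5893 other promoters in it. The 3 members in that range that were not open in both were PCDHGA11, PCDHGB6 with 53 CpGs and PCDHGC4 with 51. PCDHGC5 had 14, and PCDHB1 had 34. These shares were compared as descriptions, since members of a tandem array are not independent.

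**Figure D4:**
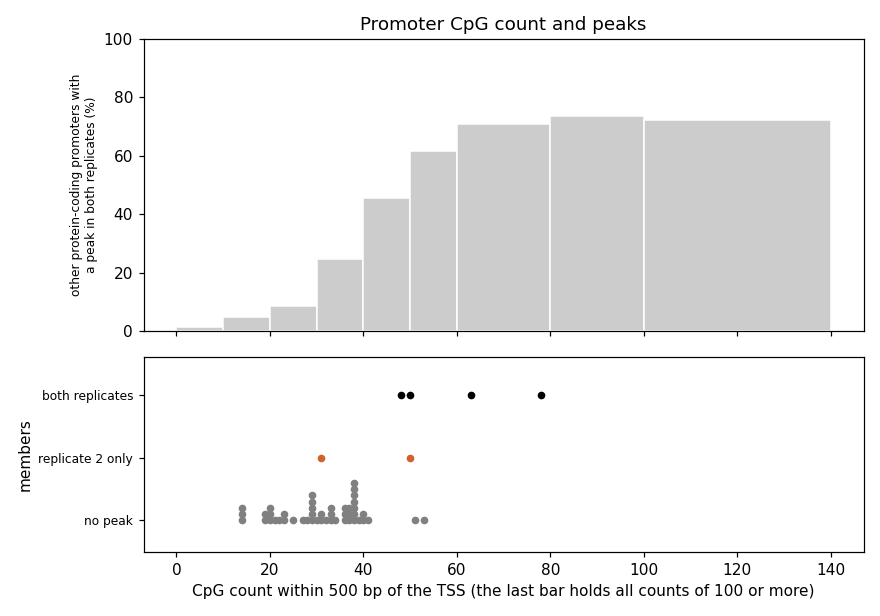
Upper panel, share (%) of other protein-coding promoters with a peak in both replicates in each range of CpG count within 500 bp of the TSS. Lower panel, CpG count of each member (points) by whether it had a peak in both replicates, in replicate 2 only or in neither, with members open in both at 48, 50, 63 and 78.

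Related genes were read in the same way, beside the 50.9% of all protein-coding promoters. Of the 11 non-clustered protocadherins, 5 were open in both replicates (45.5%), with PCDH9 at 18.2 and 17.5 and PCDH10 at 12.5 and 8.59. PCDH7, PCDH18 and PCDH1 were open with lower values. Of 15 classical cadherins 5 were open (33.3%), among them CDH2, or N-cadherin, at 7.23 and 6.05. Of the 35 other protein-coding genes within 1 Mb of the span, 29 were open (82.9%), with a median fold enrichment of 11.8 and 12.2. Their median CpG count was 71, against 33 at the members. Some adjacent genes share a peak, such as HARS1 and HARS2, so the open promoters outnumber the peaks.

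Of 21 genes for factors known to act on these clusters, 17 had an open promoter in both replicates (81.0%, against 50.9% of all). The median CpG count of that list was 101, and 72.4% of other promoters with 100 or more CpGs were open. These included CTCF at 11.8 and 11.1, the cohesin subunit gene RAD21 at 13.7 and 10.4, and WAPL, which releases cohesin from DNA, at 15.9 and 13.2. SMCHD1, a repressor of the clusters, stood at 6.41 and 7.25, and DNMT3B, a DNA methyltransferase, at 5.72 and 9.06. ZNF274 and STAG2 had a peak in replicate 2 only, and SETDB1 and WIZ had none within the window. The promoter of a gene being open gives no level of its product.

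The cell type of the label was read against marker genes in the same way. Of 12 epithelial markers, none was open in both replicates, against 50.9% of all protein-coding promoters, and KRT8 had a peak in replicate 2. Of 12 mesenchymal markers 8 were open (66.7%, Wilson interval 39.1% to 86.2%), VIM and FN1 among them. Of 12 neuronal markers 3 were (25.0%): MAP2, SYT1 and TUBB3. A promoter without a listed peak cannot be called closed, and only the canonical TSS of each marker was read. These counts therefore do not decide the type of the cells. The part of the cells' state in the members' peaks was not tested.

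**Figure D5:**
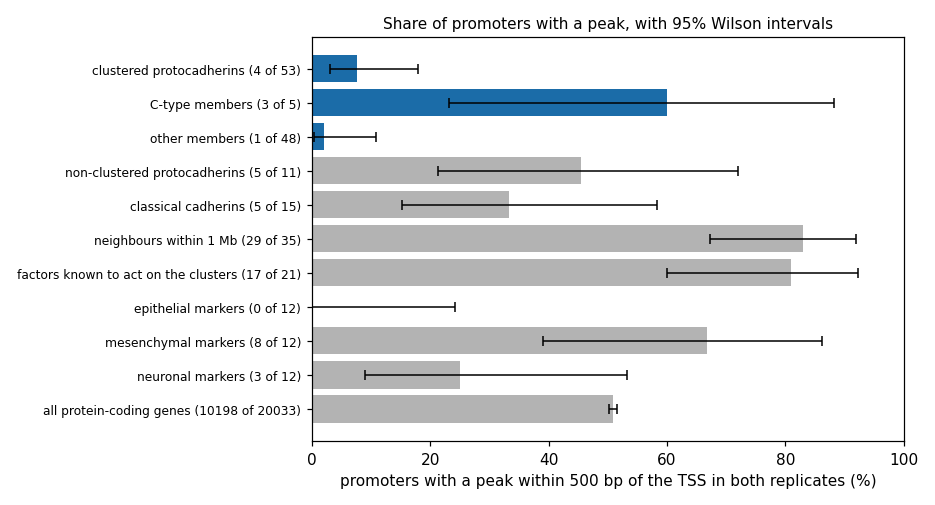
Share (%) of promoters with a peak within 500 bp of the TSS in both replicates, for the members (blue) and for other gene lists (grey), with the count in brackets and 95% Wilson intervals as error bars, which cover counting error only. The clustered protocadherins stand at 7.55% and all protein-coding genes at 50.9%.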

How the data were processed

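ATAC-seq was performed by the authors on 2 replicates of B2B cells. Per the submitters' processing notes and the study's methods, reads were mapped to hg38 with Bowtie2 (v.2.4.4) and peaks were called for each replicate with MACS2 (v.2.2.7.1), after removal of duplicates. SAMtools (v.1.13) is also listed. The q limit, any Tn5 shift and the treatment of multi-mapping reads are not given in the sources used here. The deposited lists give a fold enrichment (a linear ratio), a −log10 p and −log10 q, and a score, which was not used. The number of fragments at a summit is the pileup there (the reads or read pairs stacked), solved from those ratios and p-values. It was a whole number within 0.01 for 99.9% of peaks in each list. The study's methods do not say whether single reads or read pairs were piled up.

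TSSs came from GENCODE 44. A replicate's value is its highest peak overlapping the TSS ± 500 bp by at least 1 bp. The SD is over the 2 replicates. Near-identical copies were found with BLAST 2.17.0 (100 bp, 95% identity). Sequences were read from hg38, and all entries of the RefSeq promoter table, which held 47 of the 53 members, matched it. Scripts ran in Python 3.11.15 with pandas 2.3.3 and pysam 0.24.0, and were tested on simulated data.

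The members and gene lists were chosen with earlier results of these data known. Every member with a peak in either replicate is named, with the C-type genes, PCDHB1, and each region of the span away from member promoters. PCDHGB6, PCDHB16, PCDHB12, PCDHGA10 and the members named for a word or a letter match were named after their values were seen. Other window sizes, peak limits, overlaps and sequence settings were tried.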

Additional observations from a re-analysis of the deposited data

How the results depend on the processing

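No paired analysis was possible because all samples belong to 1 group and no test was run. Over 35 recomputed values of 5 results, 27 stayed within the set limits, which let counts change by up to 1.5 times. Counts and median fold enrichments cannot reverse in sign. The CpG difference could have, and it did not. The same 4 members were open in both replicates with windows of 250, 1000 or 2000 bp, with the summit required in the window, at a −log10 q of at least 5, with equal numbers of peaks and with the TSS of any transcript. With near-identical windows left out, PCDHGB7 was lost, 3 members were open and the median fold enrichment was 14.99. When the peaks of both replicates had to overlap by 50%, PCDHGC3 was lost, since its peak in replicate 1 spans what replicate 2 lists as 2 peaks, and the median was 9.48. Leaving out 1 replicate gave 4 to 6 members, a median fold enrichment of 7.59 to 11.5, 8 to 15 peaks in the span and a CpG difference of 18.0 to 24.5, the ends of 6, 7.59, 15 and 18.0 being those without replicate 1. The CpG difference was 18.5 within 250 bp. The CTCF core was found in 17 members as AGNNGGC (32.1%, against 71.5% of all promoters). It stood in 8 (15.1%, against 56.6%) when 500 bp before the TSS were searched. Neither share allows for the members' lower GC content. With only peak lists at hand, signal below the peak limit, from 16 fragments in replicate 1 and 13 in replicate 2, could not be read, and 2 replicates give a coarse SD.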
